A study of Mus musculus with 11 samples.

Results

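Neurofilaments and peripherin are the intermediate filament proteins of sensory neurons. Their genes were chosen by symbol, and all 5 members, *Nefl*, *Nefm*, *Nefh*, *Prph* and *Ina*, were found once each among the 36670 genes of an RNA-Seq table of mouse dorsal root ganglia (DRGs). The table holds 11 mice in 4 groups. WT_V is 3 WT control mice, which the study calls naive and noninjured, and the labels do not say whether the V stands for a vehicle. WT_P is 3 WT mice at 4 weeks after paclitaxel (PTX), a chemotherapy drug that causes neuropathic pain. KO_V is 3 control mice and KO_P is 2 PTX mice that lack *Gpr37l1*, a receptor gene of satellite glial cells (SGCs). KO mice carried a targeted germline allele, so the gene was lost in every cell and not in SGCs alone. The paper describes the line and its littermates as of C57BL/6 background, while the name of the line also holds a second strain. Whether the WT mice sequenced were littermates is not stated in the sources used here. The age of the mice sequenced is not given in the sources used here. Each group has 1 female, numbered 3, and the rest are labelled male, so that number 3 and female sex cannot be told apart.

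Neurofilaments run along the axon and set its caliber, and so the speed of conduction. They are built from a light, a medium and a heavy subunit (NFL, NFM and NFH, from *Nefl*, *Nefm* and *Nefh*) that assemble on NFL. The medium and heavy subunits carry long tails that are phosphorylated at Lys-Ser-Pro repeats inside the axon. Peripherin, from *Prph*, is the intermediate filament best known from small unmyelinated sensory neurons and from neurons that regrow an axon. α-Internexin, from *Ina*, joins neurofilaments mainly in the central nervous system. In DRGs, high neurofilament content marks large myelinated neurons. Neurofilament light chain that leaks into blood is used as a marker of axon damage, which is a matter of protein release and not of mRNA in the cell body.

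In GRCm38, the mm10 build that the submitters' processing notes name, *Nefl* (ENSMUSG00000022055) lies at chr14:68083863-68089095 on the plus strand, and *Nefm* (ENSMUSG00000022054) lies at chr14:68082590-68124846 on the minus strand. *Nefh* (ENSMUSG00000020396) lies at chr11:4938754-4948064 on the minus strand, *Prph* (ENSMUSG00000023484) at chr15:99055174-99058978 on the plus strand and *Ina* (ENSMUSG00000034336) at chr19:47014698-47025327 on the plus strand. The deposited positions were the same as those in GENCODE release M21. *Nefl* and *Nefm* overlap on opposite strands. The last exon of a long *Nefm* transcript (ENSMUST00000111089) covers 1108 bases of the first exon of *Nefl*, chr14:68083863-68084970. The kit kept the strand, but it is not stated whether the counting used it, so *Nefl* and *Nefm* reads from those bases are uncertain. The first exon of *Ina* overlaps *Nt5c2* on the other strand, and *Nefh* and *Prph* overlap no annotated gene.

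The 5 genes encode members of 1 family, and near the end of the α-helical rod their sequences are closely alike. The 36-base in-frame window of *Nefl* with the closest ungapped match in the other members is shown to let their kinship be read directly, with the 28 bases that are the same in all 5 genes in capitals. Each is read 5′ to 3′ on the coding strand of the GENCODE M21 transcript.
Nefl: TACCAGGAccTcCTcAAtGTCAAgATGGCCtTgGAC
Nefm: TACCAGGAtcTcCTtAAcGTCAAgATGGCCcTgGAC
Nefh: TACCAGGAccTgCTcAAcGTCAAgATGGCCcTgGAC
Prph: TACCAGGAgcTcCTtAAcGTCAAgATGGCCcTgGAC
Ina: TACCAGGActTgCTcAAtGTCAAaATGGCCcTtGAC
The window lies in exon 2 of *Nefl* (chr14:68086043-68086078), exon 2 of *Nefm* (chr14:68122841-68122876), exon 3 of *Nefh* (chr11:4943871-4943906), exon 5 of *Prph* (chr15:99057396-99057431) and exon 2 of *Ina* (chr19:47021902-47021937). *Nefh* matched *Nefl* at 33 of its bases, *Nefm* and *Prph* at 32 and *Ina* at 31. Over whole transcripts, the longest exact run that any pair of members shared was 35 bases, between *Nefm* and *Prph*, and the other pairs shared at most 23 bases.

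The tails set the members apart. In-frame runs of codons for Lys, Ser and Pro, the repeat that is phosphorylated in axons, occurred 51 times in the coding sequence of *Nefh*, from codon 522 to codon 887 of 1090. They occurred 4 times in *Nefm* and not once in *Nefl*, *Prph* or *Ina*. The 150-base stretch of *Nefh* with the most of them is shown with its 8 Lys-Ser-Pro runs in capitals. It lies in exon 4, chr11:4940920-4941069, and is read 5′ to 3′ on the minus strand.
Nefh: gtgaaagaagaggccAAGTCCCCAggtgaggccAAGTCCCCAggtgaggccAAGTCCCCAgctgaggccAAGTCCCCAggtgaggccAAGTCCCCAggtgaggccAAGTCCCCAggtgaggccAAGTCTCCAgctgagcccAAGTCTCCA

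The labels were checked on the targeted gene and on markers. *Gpr37l1* was at 14.6 to 35.7 FPKM (fragments per kilobase of exon, scaled to the library's depth) in the 6 WT mice and at 0.21 to 1.15 FPKM in the 5 KO mice. All 9 sensory neuron markers found in the table were above 0 FPKM in every library, led by *Tubb3* at 975 to 1556 FPKM. Estimated counts summed to 52735648 to 80348732 per library. The library WT_V_1 stood apart from its group in a chi-square comparison of counts, with 143 and 131 per gene against the other WT controls, while those differed from each other by 61.7 and replicates of the other groups by 24.3 to 46.5. Skeletal muscle markers, of which 11 of 11 were found, summed to 8.71 to 668 FPKM per library. Spinal cord glia markers (10 of 10 found) were highest in 1 library, KO_P_3, where they summed to 25.9 FPKM. They summed to 8.99 FPKM in KO_P_2 and to 3.54 to 9.58 FPKM in the other groups. *Olig1*, *Olig2*, *Mog* and *Opalin* were at 0 in at least 1 library.

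Neurofilament genes were among the most highly expressed genes of the DRG. Together, the 5 members took 1.26% to 1.54% of all estimated counts in a library. Estimated counts per library ran from 244561 to 439142 for *Nefl*, 202375 to 396521 for *Nefm*, 141073 to 256202 for *Nefh*, 76613 to 134741 for *Prph* and 2490 to 4853 for *Ina*, so counting error was small beside the spread between mice. *Nefl* ranked 24th by mean FPKM in WT_V among the 36670 genes. *Prph* ranked 34th, *Nefm* 39th, *Nefh* 41st and *Ina* 2984th. 

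*Nefl*, which encodes the light subunit on which the filament is built, was the highest member in 11 of 11 mice. Its FPKM was 1263, 1372 and 1248 in WT_V, 1415, 1332 and 1489.8 in WT_P, 1319, 1527 and 1276 in KO_V and 1425 and 1429.7 in KO_P. In each of the comparisons made below the groups overlapped, although WT_V and KO_P, which differ in both genotype and PTX, did not. The share of all genes without overlap between WT_V and KO_P was not computed. The highest value was that of a male KO control. Group means were 1294 ± 67.4 (SD, n = 3), 1412 ± 79.0 (n = 3), 1374 ± 135 (n = 3) and 1428 ± 3.08 (n = 2).

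*Nefm*, the gene of the medium subunit, was at 611, 695 and 647 FPKM in WT_V, 708, 655 and 769 in WT_P, 675, 806 and 629.7 in KO_V and 762 and 742 in KO_P. *Nefh*, the gene of the heavy subunit with the long Lys-Ser-Pro tail shown above, was at 617, 664 and 598 FPKM in WT_V, 667, 632 and 704 in WT_P, 639.6, 754 and 586 in KO_V and 704 and 723 in KO_P. For both genes, as for *Nefl*, the second KO control (KO_V_2) was the highest of all mice, and groups overlapped except WT_V and KO_P. *Nefm* exceeded *Nefh* in 10 of 11 mice, by less than the spread of either gene between mice. Within a mouse, the ratio of *Nefh* to *Nefm* was 0.948 ± 0.0273 (SD, n = 11) and ran from 0.916 to 1.01.

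FPKM compares genes per base of merged exons, and this choice decides the place of *Nefm*. The ratio of counts to FPKM in the table gave a length of 5782 bases for *Nefm*, which is that of its 2 annotated transcripts merged. The shorter transcript (ENSMUST00000022638), which holds the coding sequence with the Lys-Ser-Pro runs counted above, has 3334 bases. Per base of that transcript, *Nefm* would be at 1129 ± 73.2 (SD, n = 3) in WT_V on the FPKM scale, below *Nefl* in 11 of 11 mice and above *Nefh* and *Prph* in 11 of 11. The lengths of *Nefl* (3380 bases), *Nefh* (3994 bases) and *Ina* (3240 bases) come from a single transcript each, and that of *Prph* changes little, from 1999 to 1863 bases.

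*Prph*, the gene of peripherin, was at 827, 834 and 689 FPKM in WT_V, 667, 672 and 633 in WT_P, 660.3, 673 and 699.8 in KO_V and 648 and 637 in KO_P. The male WT controls were the highest mice, and the other 9 mice lay between 633 and 699.8 FPKM. Group means were 783 ± 81.7 (SD, n = 3) in WT_V, 657 ± 21.0 (n = 3) in WT_P, 678 ± 20.2 (n = 3) in KO_V and 643 ± 7.47 (n = 2) in KO_P. In the order of FPKM, *Prph* was above *Nefm* in 5 of 11 mice and above *Nefh* in 7 of 11, so these 3 genes did not keep 1 order. 

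*Ina*, the gene of α-internexin, was lower by far. It was at 13.4, 18.5 and 16.1 FPKM in WT_V, 15.05, 16.5 and 18.0 in WT_P, 14.6, 17.6 and 14.3 in KO_V and 16.3 and 17.6 in KO_P. The groups overlapped in each direction. Its ratio to *Nefl* was 0.0118 ± 0.000921 (SD, n = 11 mice). Spinal cord neuron markers, which would come with spinal tissue in a dissection, summed to 7.18 FPKM in KO_P_3 and 2.68 in KO_P_2. In the other groups they summed to 0.97 to 2.74 FPKM. Of the 9 such markers found, *Chat*, *Gad2*, *Slc32a1*, *Slc6a5* and *Lhx1* were at 0 in at least 1 library. Their part in the level of *Ina* was not tested.

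**Figure D1:**
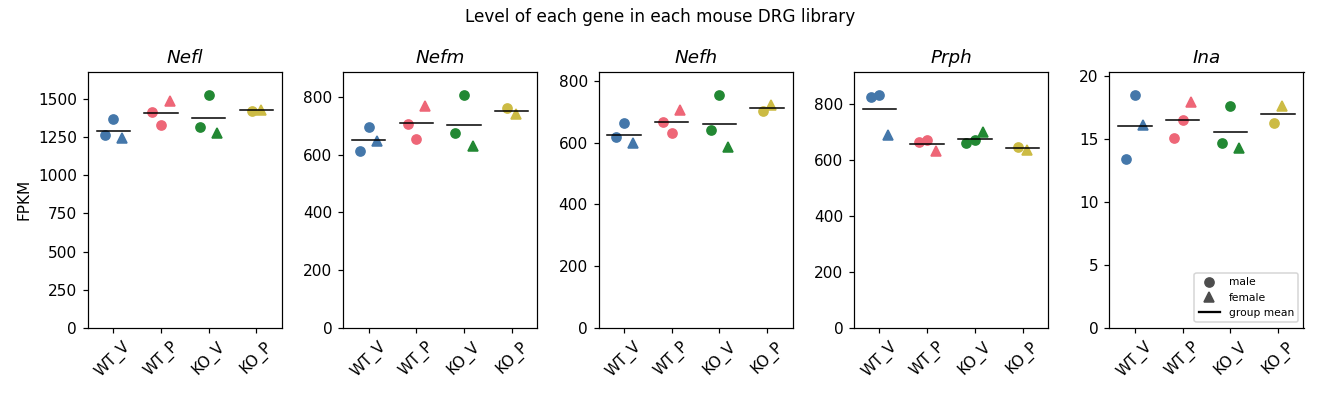
FPKM (y axes, from 0) of each gene in each mouse by group (x axes), with circles for males, triangles for females and a line at the group mean. *Prph* of the 2 male WT controls (827 and 834 FPKM) lies above that of the other 9 mice, while for *Nefl*, *Nefm*, *Nefh* and *Ina* groups that differ in PTX alone or in genotype alone overlap.

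The 3 neurofilament subunits varied together from mouse to mouse. Across the 11 mice, log2 FPKM of *Nefl* followed that of *Nefm* (Pearson's r = 0.96, permutation p = 1e-05, the smallest that 100000 permutations can give, adjusted p = 0.0001 over the 10 pairs of members, Spearman's rho = 0.95, adjusted permutation p = 0.00015). *Nefl* also followed *Nefh* (r = 0.95, permutation p = 3e-05, adjusted permutation p = 0.0001, rho = 0.95, adjusted p = 0.00015), and *Nefm* followed *Nefh* (r = 0.95, permutation p = 2e-05, adjusted permutation p = 0.0001, rho = 0.95, adjusted p = 0.0002). Without the 2 mice farthest from the median, r was 0.97, 0.92 and 0.96 for the same pairs. On deviations from the group means, r was 0.96, 0.97 and 0.93, so the relation stood within groups. The part of reads from the bases that *Nefl* and *Nefm* share was not tested.

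*Ina* had lower r values with the subunits, and their difference from those above was not tested. Its r was 0.67 with *Nefl* (permutation p = 0.0269, adjusted p = 0.0448), 0.71 with *Nefm* (permutation p = 0.0164, adjusted p = 0.041) and 0.67 with *Nefh* (permutation p = 0.0261, adjusted p = 0.0448). Spearman's rho was 0.68, 0.68 and 0.65, with adjusted permutation p of 0.051, 0.051 and 0.0542, which missed the threshold of 0.05. Without the 2 farthest mice r was 0.74, 0.56 and 0.56.

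*Prph* had no relation to the other members that passed the test. Its r was −0.46 with *Nefl* (permutation p = 0.162, adjusted p = 0.202), −0.53 with *Nefm* (permutation p = 0.096, adjusted p = 0.137), −0.40 with *Nefh* (permutation p = 0.231, adjusted p = 0.256) and −0.22 with *Ina* (permutation p = 0.508, adjusted p = 0.508). Spearman's rho was −0.59, −0.63, −0.60 and −0.28, with adjusted permutation p of 0.0671, 0.0631, 0.0671 and 0.404. Without the 2 farthest mice r was −0.57, −0.38, −0.47 and −0.61. On deviations from the group means r was 0.05, −0.17, 0.04 and −0.17. The male WT controls stand apart in *Prph*, so each pooled r with *Prph* also carries their distance from the other mice.

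**Figure D2:**
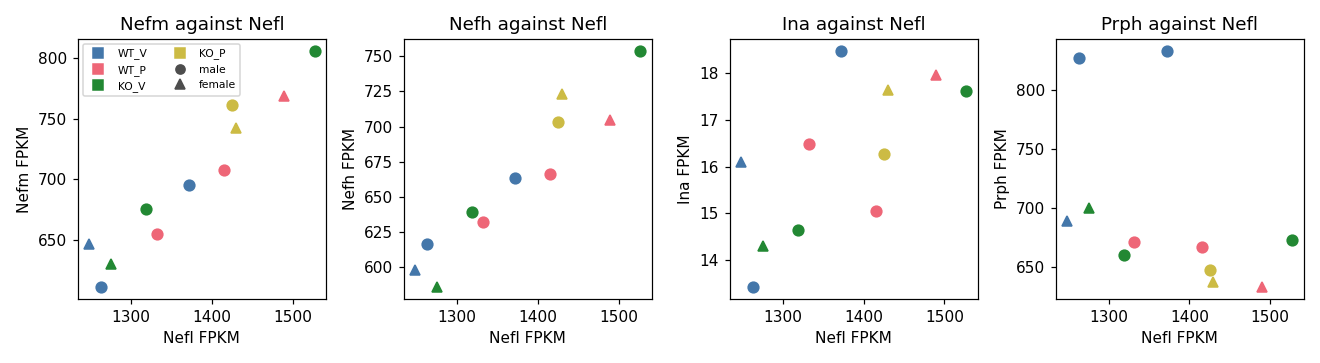
FPKM of *Nefm*, *Nefh*, *Ina* and *Prph* (y axes) against FPKM of *Nefl* (x axes) in 11 mice, with colours for groups, circles for males and triangles for females. Axes do not start at 0. *Nefm* and *Nefh* rise with *Nefl* along a line (r = 0.96 and 0.95), and the 2 male WT controls stand apart in *Prph* (r = −0.46).

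As a description, the likeness of the subunits was set beside that of 7336 other genes whose mean was 5 FPKM or more, on log2 CPM (counts scaled to library size) with TMM scaling. No other gene followed *Nefl* more closely than *Nefm* (r = 0.96) or *Nefh* (r = 0.96) did. For *Nefm*, 1 gene did, *Lactb2* (r = 0.97), a mitochondrial ribonuclease. The closest genes outside the family were *Prep*, *Lactb2* and *St8sia3* for *Nefl* (r = 0.93, 0.92 and 0.92), *Lactb2*, *Dync1li1* and *Leo1* for *Nefm* (r = 0.97, 0.94 and 0.94) and *Prep*, *St8sia3* and *Pak1* for *Nefh* (r = 0.93, 0.92 and 0.91). *Dync1li1* encodes a light intermediate chain of dynein, the retrograde motor of axons. For *Ina* the closest were *Sobp*, *Spats2* and *Nono* (r = 0.91, 0.90 and 0.90). For *Prph* they were *Grk6*, *Arap1* and *Rps19bp1* (r = 0.96, 0.95 and 0.95), but without the 2 mice farthest in *Prph*, r was 0.64, 0.68 and 0.86. All these points share libraries and their scaling, and the highest of 7336 values over 11 mice are high in part through the search.

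Ratios within a library do not depend on its depth. The ratio of *Nefh* to *Nefl* FPKM was 0.482 ± 0.0129 (SD, n = 11) and ran from 0.459 to 0.506. That of *Nefm* to *Nefl* was 0.509 ± 0.0158 and ran from 0.484 to 0.534. Between mice, these ratios thus had a coefficient of variation of 2.68% and 3.11%, against 6.79% for the FPKM of *Nefl* itself, 9.03% for *Nefm* and 8.15% for *Nefh*. The ratio of *Prph* to *Nefl* varied more, with a coefficient of 14.5%.

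By group, the ratio of *Prph* to *Nefl* was 0.605 ± 0.0516 (SD, n = 3) in WT_V, 0.467 ± 0.0399 (n = 3) in WT_P, 0.497 ± 0.0542 (n = 3) in KO_V and 0.450 ± 0.00621 (n = 2) in KO_P. In WT_V the 3 mice were at 0.655, 0.608 and 0.552, above the 3 mice of WT_P at 0.425 to 0.504 and the 3 mice of KO_V at 0.440 to 0.549. These ratios were not tested. The ratio of *Nefh* to *Prph* was 0.745 to 0.868 in WT_V, 0.941 to 1.11 in WT_P, 0.837 to 1.12 in KO_V and 1.09 to 1.14 in KO_P.

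**Figure D3:**
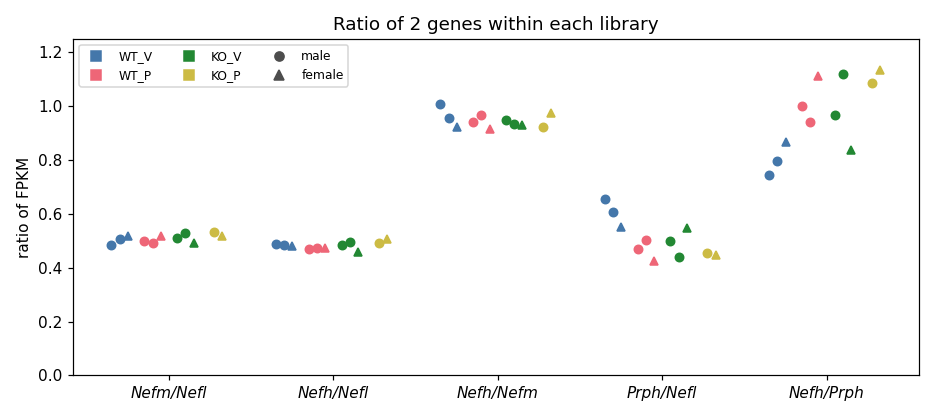
Ratio of the FPKM of 2 genes in each mouse (y axis, from 0) for 5 gene pairs (x axis), with colours for groups, circles for males and triangles for females. *Nefm*/*Nefl* and *Nefh*/*Nefl* stay between 0.459 and 0.534 in all mice. *Prph*/*Nefl* is highest in the 3 WT controls, but their lowest value (0.552) is close to the highest KO control (0.549).

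The design asks whether PTX changes the DRG transcriptome in WT and in KO mice and whether loss of *Gpr37l1* does so with or without PTX. Changes were tested with edgeR's quasi-likelihood test on the estimated counts of 15087 genes, with Benjamini-Hochberg adjustment over all of them. No member passed the adjusted p of 0.05 in any of the 6 contrasts. The share of all genes that passed was 0.0133% for KO against WT after PTX, 0.0398% for sex and 0.00663% for each of the other 4 contrasts. In DESeq2, which called 309 genes for PTX in WT where edgeR called 1, no member passed in any contrast either. At an unadjusted p under 0.05, the count of members was 1 of 5 for PTX in WT (2030 of all genes, 13.5%, 6.87% lower), 0 of 5 for PTX in KO (4.32%, 2.57% lower), 1 of 5 for KO against WT controls (7.54%, 3.58% lower) and 0 of 5 for KO against WT after PTX (3.55%, 1.74% lower), for the difference between PTX effects (6.3%, 3.18% lower) and for sex (8.44%, 4.12% lower). Between groups that differ in PTX alone or in genotype alone, FPKM values failed to overlap for *Prph* alone, lower after PTX in both genotypes. Among all genes, 6.81% were higher and 7.37% lower without overlap when PTX was compared with control in WT. The shares were 11.3% and 10.4% in KO, 4.55% and 4.73% between the genotypes in controls and 10.7% and 9.58% between the genotypes after PTX. In bulk tissue, fewer cells of a type and less RNA per cell cannot be told apart, so a difference in *Prph* or a neurofilament gene may be either.

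Between control and PTX mice of the WT genotype, *Prph* had the only member difference with an unadjusted p under 0.05, a log2 fold change of −0.25 (SE 0.075, 95% confidence interval −0.42 to −0.088, unadjusted p = 0.00666 and adjusted p = 0.26 in edgeR). All 3 PTX mice were below all 3 controls. The exact two-sided permutation test of FPKM gave p = 0.1, the smallest that 3 against 3 mice allow. *Nefl* differed by 0.12 on the log2 scale (SE 0.092, 95% interval −0.080 to 0.33, adjusted p = 0.55), *Nefm* by 0.12 (interval −0.12 to 0.37), *Nefh* by 0.092 (interval −0.13 to 0.32) and *Ina* by 0.042 (interval −0.25 to 0.33). For *Nefl*, the interval spans a change from 5.37% lower to 25.5% higher. Without the third WT_P mouse, the differences were 0.028 for *Nefl* and 0.0014 for *Nefm*.

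The 2 male WT controls had the highest *Prph*. Within males, *Prph* was at 827 and 834 FPKM in the controls and at 667 and 672 in the PTX mice. Within females, it was at 689 in the control and at 633 in the PTX mouse. Without 1 of the male WT controls, the log2 fold change was −0.22 in either case. Without both it was −0.058 (SE 0.073). These 2 mice were picked after their values were seen and only 1 WT control is left, so a smaller difference follows from the choice, and the value is a description and no test.

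In KO mice, *Prph* after PTX differed by −0.065 on the log2 scale (SE 0.084, 95% interval −0.25 to 0.12, adjusted p = 0.999 in edgeR). Both PTX mice (637 and 648 FPKM) were below the 3 controls (660.3 to 699.8 FPKM), and the exact two-sided permutation test gave p = 0.2, where 0.1 is the smallest that 2 against 3 mice allow. Differences of the other members were 0.059 for *Nefl*, 0.097 for *Nefm*, 0.12 for *Nefh* and 0.12 for *Ina*, and each interval included 0. For *Nefl* the interval ran from −0.17 to 0.29. Without the third KO_V mouse, the difference was −0.00075 for *Prph* and 0.0079 for *Nefh*.

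The difference between the PTX effects in KO and in WT mice, tested as an interaction, was 0.19 on the log2 scale for *Prph* (SE 0.11, 95% interval −0.060 to 0.44, adjusted p = 0.724 in edgeR). For the 3 subunits it lay between −0.065 and 0.029.

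Between genotypes without PTX, *Prph* was again the only member with an unadjusted p under 0.05, with a log2 fold change of −0.21 in KO against WT (SE 0.075, 95% interval −0.37 to −0.039, adjusted p = 0.657 in edgeR). The groups overlapped, since a KO control at 699.8 FPKM was above a WT control at 689. This comparison and that of PTX in WT share the 3 WT controls. *Nefl* differed by 0.087 (interval −0.12 to 0.29), *Nefm* by 0.11 (interval −0.13 to 0.36), *Nefh* by 0.076 (interval −0.15 to 0.30) and *Ina* by −0.041 (interval −0.33 to 0.25).

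After PTX, *Prph* of KO and WT mice differed by −0.016 on the log2 scale (SE 0.084, 95% interval −0.20 to 0.17, adjusted p = 0.994 in edgeR), *Nefl* by 0.022 (interval −0.21 to 0.25), *Nefm* by 0.087 (interval −0.19 to 0.36), *Nefh* by 0.11 (interval −0.15 to 0.36) and *Ina* by 0.035 (interval −0.29 to 0.36). Between females and males over all groups, the members differed by −0.089 (*Prph*) to 0.021 (*Ina*).

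**Figure D4:**
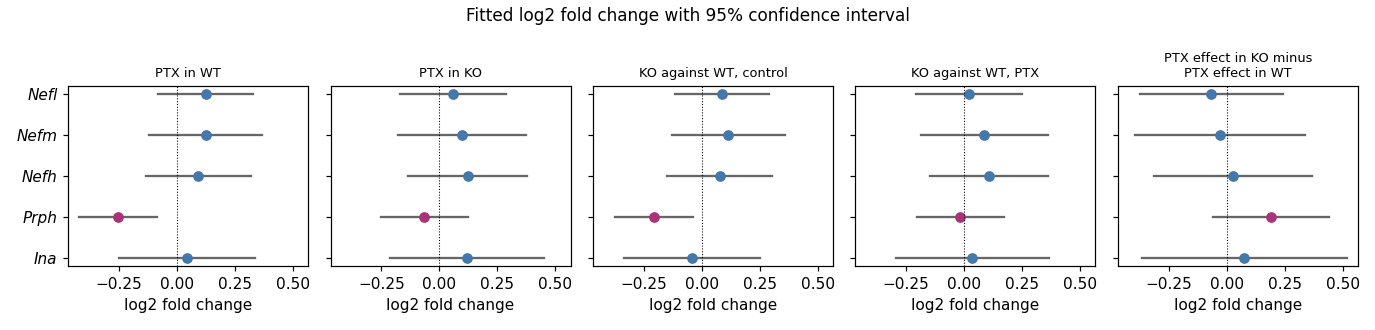
Fitted log2 fold change (x axes) of each gene (y axis) in 5 contrasts, with lines for the 95% confidence interval and a dotted line at no change. The intervals of *Prph* (purple) lie below 0 for PTX in WT (−0.42 to −0.088) and for KO against WT in controls (−0.37 to −0.039), and all other intervals include 0.

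Most genes of axon injury tested were highest in the same 2 mice as *Prph*. These genes are switched on in sensory neurons whose axons are damaged, and peripherin is known to increase in regrowing neurons. The transcription factor *Atf3*, named here after its values were seen, was at 34.8 and 60.2 FPKM in the male WT controls against 1.90 to 19.4 FPKM in the 9 remaining mice. *Sprr1a*, a growth-associated gene of injured neurons, was at 57.3 and 118 FPKM against 0.09 to 27.6. The neuropeptide gene *Gal* was at 49.5 and 130.3 FPKM against 14.9 to 42.1. *Gap43*, a growth cone gene, was at 138 and 209 FPKM, and the highest of the other mice was at 139.8. *Jun*, a transcription factor of the same response, was at 36.03 and 50 FPKM against 24.2 to 38.8.

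The male WT controls were the highest 2 mice for 9 of the 13 injury genes tested and for 6.82% of all genes tested. The list had a median log2 fold change of −1.09 for PTX in WT, with 13 of 13 genes lower, 10 of them at an unadjusted p under 0.05, beside a median of −0.0058 over all genes, of which 7718 of 15087 were lower and 6.87% were lower at that p. None passed an adjusted p of 0.05 in edgeR, and DESeq2 called *Gadd45a*, a stress response gene, and *Gap43*. Between control genotypes the median was −0.72, with 13 of 13 lower. After PTX in KO mice it was −0.035, with 9 of 13 lower. Without both male WT controls, the medians were −0.18 for PTX in WT and 0.11 for KO against WT controls, which again follows in part from the choice of mice.

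Between the sexes, the same list had a median log2 fold change of −1.07 in females against males, with 13 of 13 lower. Of these, 12 were at an unadjusted p under 0.05, beside 4.12% of all genes in that direction, and none at an adjusted p under 0.05 in the main edgeR fit. DESeq2, which called 123 of all 15087 genes for sex, called *Atf3*, *Cckbr*, *Ecel1*, *Flrt3*, *Npy*, *Nts* and *Sprr1a* of the list. Without the filter on low values, edgeR called *Atf3*, *Nts* and *Sprr1a* of it. *Atf3* was at 1.90 to 2.79 FPKM in the 4 females and at 5.09 to 60.2 FPKM in the 7 males, while *Prph* of the 2 sexes overlapped. The summed FPKM of the 15 injury genes was 185 to 703 in WT_V, 169 to 248 in WT_P, 176 to 345 in KO_V and 183 to 245 in KO_P. Over the 9 mice other than the male WT controls, log2 FPKM of *Prph* and log2(FPKM + 1) of *Atf3* had r = 0.068 and rho = 0.22. Without the 2 of these mice farthest in *Atf3*, r was −0.35. The highest *Atf3* of these mice, 19.4 FPKM in KO_V_2, came with *Prph* at 673 FPKM. The likeness of *Prph* to *Atf3* thus rests on the 2 male WT controls. The part of the injury genes in the level of *Prph* was not tested.

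**Figure D5:**
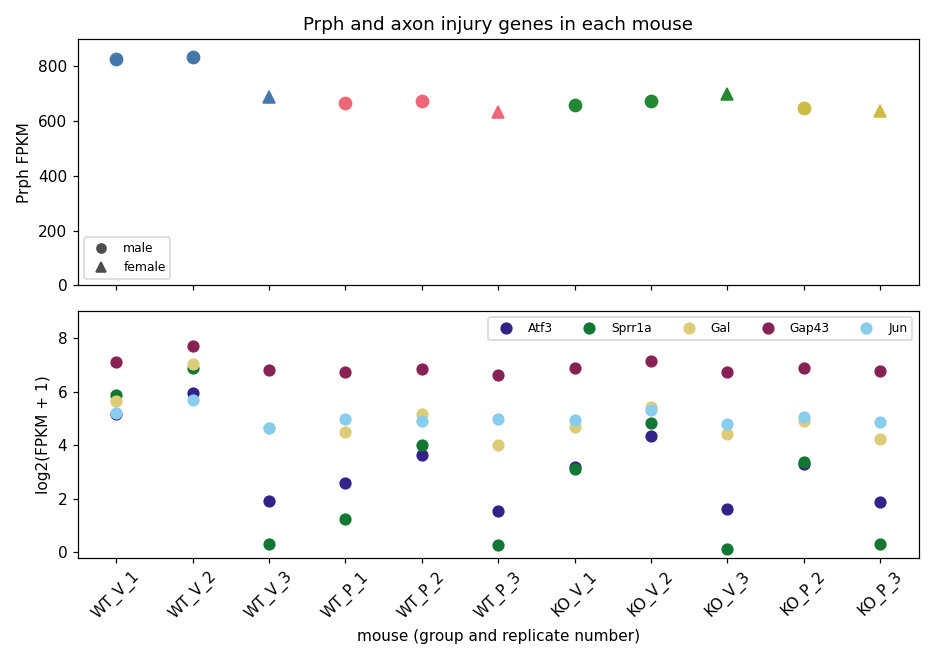
Top, *Prph* FPKM (y axis, from 0) in each mouse (x axis), with colours for groups, circles for males and triangles for females. Bottom, log2(FPKM + 1) of *Atf3*, *Sprr1a*, *Gal*, *Gap43* and *Jun* in the same mice. The first 2 mice, the male WT controls, are the highest in *Prph* (827 and 834 FPKM) and in *Atf3* (34.8 and 60.2 FPKM).

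Other intermediate filament genes were examined beside the members. *Vim*, the filament of glia, fibroblasts and of regrowing axons, was at 115 and 123 FPKM in the male WT controls against 82.3 to 99.9 FPKM in the rest. *Lmna*, a nuclear lamin, was at 21.0 and 20.7 FPKM against 15.0 to 17.5. The log2 fold change for PTX in WT was −0.25 for *Vim* (SE 0.073, adjusted p = 0.264 in edgeR) and −0.27 for *Lmna* (SE 0.066, adjusted p = 0.222). DESeq2 called *Lmna* for PTX in WT and *Vim* for sex. The list of 12 such genes, 9 of them tested, had a median of −0.18 for PTX in WT, with 4 higher and 5 lower, and −0.035 without both male WT controls. *Synm*, a partner of other intermediate filaments, was at 36.1 to 42.9 FPKM in all mice.

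Markers of neuron classes were set beside the class each filament is known for. Markers of large-diameter neurons, the neurons rich in neurofilaments, had a median log2 fold change of 0.21 for PTX in WT, with 14 of 16 higher, 7 of them at an unadjusted p under 0.05, beside 7369 of 15087 genes higher and 6.59% higher at that p. They summed to 402 to 556 FPKM in WT_V, 482 to 519 in WT_P, 516 to 530.4 in KO_V and 507 to 512 in KO_P. *Pvalb*, the parvalbumin gene of proprioceptive neurons that is also high in skeletal muscle, went the other way, with a log2 fold change of −0.74 (SE 0.34, adjusted p = 0.374 in edgeR) and 122, 42.5 and 106 FPKM in WT_V. Skeletal muscle markers summed to 608, 19.7 and 542 FPKM in the same 3 mice, and had a median of −2.73 for PTX in WT, with 10 of 10 tested lower and none at an unadjusted p under 0.05. Their part in these values was not tested. For nonpeptidergic neurons, which are small, the median was 0.23, with 9 of 10 higher. For peptidergic neurons it was −0.26, with 8 of 8 lower, and *Calca*, the gene of the neuropeptide CGRP, was at 749 and 988 FPKM in the male WT controls against 557 to 801 in the rest. Without both male WT controls these medians were 0.043, 0.031 and −0.14. For PTX in KO they were 0.054, −0.080 and −0.093. For KO against WT controls they were 0.15, 0.21 and −0.088, and for females against males 0.15, 0.21 and −0.23, so such shifts were not particular to PTX. Markers of C-fibre low-threshold mechanoreceptors had a median of 0.26 for PTX in WT, with 4 of 5 tested higher. It was 0.093 without both male WT controls and 0.079 for PTX in KO. Markers of all sensory neurons had medians of −0.034 for PTX in WT and 0.038 for PTX in KO. Markers of macrophages had a median of −0.58 for PTX in WT, with 10 of 10 lower, and −0.50 without both male WT controls. Those of SGCs were at 0.034 and those of myelinating Schwann cells at −0.10. No marker passed an adjusted p of 0.05 in the main edgeR fit. For PTX in WT, DESeq2, which called 309 of all 15087 genes, called the macrophage genes *Adgre1*, *C1qb*, *C1qc*, *Csf1r* and *Mrc1*. It also called *Etv1*, *Vsnl1*, *Plxnc1*, *Fabp7*, *Tubb3* and *Aqp4* of the other marker lists. The part of these classes in the members' values was not tested.

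The proteins that handle neurofilaments were measured as well. Genes for assembly, transport and crosslinking (12 of 12 tested) had medians of 0.087 for PTX in WT, with 8 higher and 4 lower, 0.057 after PTX in KO mice and 0.037 between control genotypes. Among them *Kif5a*, the neuronal kinesin that carries neurofilaments, was at 164 to 198 FPKM, *Kif5c* at 78.2 to 97.5 FPKM, the microtubule gene *Map1b* at 171 to 259.55 FPKM and *Mapt*, the gene of tau, at 54.0 to 59.7 FPKM over all mice. Kinases and phosphatases of the tails (19 of 19 tested) had a median of 0.031 for PTX in WT, with 12 higher and 7 lower. The MAP kinase gene *Mapk3* was at 407 to 517 FPKM and *Cdk5r2*, an activator of CDK5, at 41.8 to 56.9 FPKM. 

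Genes for turnover and chaperones (12 of 12 tested) had a median of −0.082 for PTX in WT, with 4 higher and 8 lower, and 0.030 without both male WT controls. *Hspb1*, a small heat shock gene that injured neurons turn on, was at 177 and 188 FPKM in the male WT controls against 97.2 to 134.9 FPKM in the rest. *Uchl1*, the neuronal ubiquitin hydrolase, was at 785 to 1196 FPKM. *Hspa8*, the constitutive Hsc70 gene, was at 571 to 782 FPKM, with a log2 fold change of 0.30 for PTX in WT (SE 0.11, adjusted p = 0.332 in edgeR). Genes for proteins that bind neurofilament mRNA (7 of 7 tested) had a median of 0.070 for PTX in WT. It was 0.035 in KO mice and 0.030 between control genotypes. *Elavl4* was at 35.2 to 63.0 FPKM, *Hnrnpk* at 40.0 to 49.4 FPKM, *Sod1* at 39.5 to 52.0 FPKM and *Matr3* at 17.6 to 27.0 FPKM. In each of these 4 lists no gene passed an adjusted p of 0.05 in the main edgeR fit in any contrast. DESeq2 called *Hspb1* for PTX in WT and for sex, and edgeR called it for PTX in WT without WT_V replicate 3.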

How the data were processed

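RNA-Seq of DRGs was analysed from 11 mice, with 1 library each. Groups and replicate numbers were taken from the sample descriptions. The titles number the KO_P mice 1 and 2, and the descriptions 2 and 3. Per the labels, poly(A) RNA was sequenced with a stranded kit, and the submitters' processing notes name cutadapt, FastQC, HISAT2, StringTie and mm10. Their roles and versions are not given in the sources used here. The authors deposited 1 table with FPKM, scaled by merged exon length and library size, and with estimated counts that were not normalized. Estimated counts were used as whole numbers, 52735648 to 80348732 per library.

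The 15087 genes whose mean was 0.5 FPKM or more were fitted in edgeR 4.0.16 (R 4.3.3, TMM, quasi-likelihood test) with all 11 libraries in one fit and labelled sex as a covariate. DESeq2 1.42.0 and limma 3.58.1 on log2(FPKM + 1) and log2(FPKM + 0.1) were alternatives, as were another scaling, other filters, no sex term, a replicate block and each library left out. On simulated data with 200 of 15087 genes changed, 46.5% of 1.5-fold and 76% of 2-fold changes were recovered for PTX in WT, 22% and 73.5% for PTX in KO and 31% and 77% for KO against WT controls. Permutations, sequences and figures were made in Python 3.11.15 with numpy 2.4.6, pandas 2.3.3, scipy 1.17.1 and matplotlib 3.10.9. Sequences came from GENCODE M21 transcripts.

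The members, gene lists and tests were chosen with earlier results of these data known. Named genes were the members, *Gpr37l1*, the 4 genes of each list with the highest mean FPKM in WT_V, any list gene past an adjusted p of 0.05 in the main edgeR fit (none was) and the 3 genes most like each member. *Atf3*, *Gadd45a*, the markers at 0 and the list genes called by DESeq2 or another edgeR run were named after their values were seen. Nothing says that mice of a group were raised or dissected apart, so p-values measure only the spread between these samples. In deviations from the group means, same-numbered libraries of KO_V and WT_V had r = 0.12, 0.10 and 0.20. Those of WT_V and WT_P had r = −0.029, −0.21 and 0.064. Over all pairs of groups, same-numbered libraries ran from −0.21 to 0.25 (median 0.11, 9 of 15 pairs above 0.1). Libraries with different numbers ran from −0.25 to 0.22 (median −0.060, 4 of 30 pairs above 0.1). Number 3 cannot be told apart from female sex, and whether the numbers pair the mice was not tested.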

Additional observations from a re-analysis of the deposited data

How the results depend on the processing

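No member passed an adjusted p of 0.05 in any contrast under any alternative run. Leaving out both male WT controls and the lengths of 1 transcript were chosen after the data were seen. For PTX in WT, the adjusted p of *Prph* ran from 0.0536 (DESeq2) to 0.996 (both male WT controls left out, which were picked for their high values, so that a smaller difference follows from the choice). Single libraries left out gave log2 fold changes from −0.35 (without WT_V replicate 3, adjusted p = 0.061) to −0.22 (without WT_V replicate 1). With the replicate block, the value for PTX in WT was −0.25 (adjusted p = 0.32) and that for KO against WT controls −0.21 (adjusted p = 0.682). The block changed no call. It turned *Ina* for KO against WT after PTX to −0.032.

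Over all contrasts, fitted differences of the members changed sign in 3 values and kept it in 242 under the other settings. With 1 library left out, they changed sign in 37 and kept it in 293. Not all of these were near 0 in the main fit. Without both male WT controls, the interaction was −0.037 for *Nefh* and −0.016 for *Prph*, against 0.029 and 0.19 in the main fit. The cause of these changes was not tested. The lowest to highest log2 fold changes with 1 library left out, for the genes concerned, were *Nefh* −0.015 to 0.15 and *Ina* −0.063 to 0.17 for PTX in WT. They were *Nefl* −0.020 to 0.16 and *Nefm* −0.019 to 0.22 for PTX in KO mice. They were *Nefl* −0.021 to 0.16, *Nefm* −0.022 to 0.22, *Nefh* −0.053 to 0.17 and *Ina* −0.18 to 0.093 between control genotypes. They were *Nefl* −0.030 to 0.13, *Prph* −0.058 to 0.040 and *Ina* −0.027 to 0.15 between genotypes after PTX. They were *Nefl* −0.14 to 0.051, *Nefm* −0.14 to 0.12, *Nefh* −0.081 to 0.16 and *Ina* −0.066 to 0.21 for the interaction. They were *Nefl* −0.12 to 0.015, *Nefm* −0.13 to 0.048, *Nefh* −0.15 to 0.017 and *Ina* −0.057 to 0.10 for sex. The same ranges without a change of sign were *Nefl* 0.028 to 0.18, *Nefm* 0.0014 to 0.20 and *Prph* −0.35 to −0.22 for PTX in WT, *Nefh* 0.0079 to 0.24, *Prph* −0.11 to −0.00075 and *Ina* 0.00069 to 0.24 for PTX in KO mice, *Prph* −0.30 to −0.17 between control genotypes, *Nefm* 0.021 to 0.22 and *Nefh* 0.040 to 0.23 between genotypes after PTX, *Prph* 0.15 to 0.27 for the interaction, *Prph* −0.13 to −0.015 for sex.

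Per base of 1 transcript, *Nefm* was at 1129 in WT_V, the mean log2 ratio of *Nefm* to *Nefl* was −0.18 instead of −0.97 and that of *Nefh* to *Nefm* −0.87 instead of −0.078, which follows from the length used. TMM CPM in place of FPKM moved no ratio of group means by more than the spread within groups. Counts of the members were high in every library, so that the spread between mice set the width of their intervals.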
